A study of Drosophila melanogaster with 3 samples.

Results

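Spliceosome genes were examined for binding of the CG4617-eGFP fusion protein in Drosophila melanogaster embryos. The 38 genes are a list of splicing proteins by name, a rule that uses no measured value, and all of them were found among the 13968 protein-coding genes of the Ensembl annotation. Of these, 36 matched by symbol and 2 by an older name: SmG is annotated as SNRPG and l(3)72Ab as Brr2. Chromatin immunoprecipitation with an antibody against GFP, followed by sequencing (ChIP-seq), was done in 3 biological replicates of whole embryos of both sexes, 0 to 24 hours old, whose chromatin had been sonicated to 200 to 800 bp. All came from 1 transgenic line that carries CG4617 with enhanced green fluorescent protein (eGFP) at its C terminus, so there was 1 group and no group to compare it with. The files give lists of bound regions in the genome build dm6, each with a summit and a signal value on a scale that the authors do not state. Read depth is unknown.

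The spliceosome removes introns from messenger RNA precursors. It is built from small nuclear ribonucleoprotein particles (snRNPs), each a small nuclear RNA with particle-specific proteins and a ring of Sm proteins or, for U6, of the related LSm proteins. U1 recognises the start of the intron and U2 the branch point near its end, after which the U4/U6.U5 tri-snRNP joins and the Prp19 complex takes part in activating the machine for the cutting and joining steps. SR proteins bind exons and help to choose splice sites. The spliceosome is needed in nearly all cells. In a whole-embryo sample, binding in fewer cells cannot be told apart from weaker binding per cell.

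A promoter peak was counted when a summit of the thresholded list, the set of 5558 peaks that passed the authors' reproducibility procedure, lay within 500 bp of any transcription start site (TSS) of a gene. Sequence around the summits of 6 members is shown first, because these stretches hold the promoter elements discussed later. They are the strongest peak of each of 6 role groups among the members whose window held a searched element and could be shown. Sf3b2 and SmB were added after their values were seen, as a strong and a weak peak with the same element. Each stretch is the part of the 100 bp on either side of the summit that no annotated exon covers, read on the strand of the member gene from the RefSeq copy of Release 6. Capitals mark matches on either strand to the DNA replication-related element TATCGATA (DRE, bound by the factor DREF), Motif 1 GGTCACACT (bound by M1BP) and 4 shorter elements. The E-box searched was CAGCTG. The GAGA factor binds GAGAG. The letters TATAAA were taken as the TATA box. BEAF-32, an insulator protein, binds CGATA, which every DRE contains and which reads TATCG on the other strand. In the order printed, the stretches lie at chr3L:19910216-19910299 (plus strand), chr3R:17002356-17002467 (minus strand), chr3R:18983708-18983908 (minus strand), chr3R:6345912-6345996 (minus strand), chr3R:16341989-16342181 (minus strand), chrX:16359083-16359142 (minus strand), chr2L:3029169-3029252 (minus strand) and chr2L:10426789-10426886 (minus strand).
Prp3: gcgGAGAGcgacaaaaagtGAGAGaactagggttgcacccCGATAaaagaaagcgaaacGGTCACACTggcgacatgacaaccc
Sf3a1: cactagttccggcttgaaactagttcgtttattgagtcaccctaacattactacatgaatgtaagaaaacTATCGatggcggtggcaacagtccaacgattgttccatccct
snRNP-U1-C: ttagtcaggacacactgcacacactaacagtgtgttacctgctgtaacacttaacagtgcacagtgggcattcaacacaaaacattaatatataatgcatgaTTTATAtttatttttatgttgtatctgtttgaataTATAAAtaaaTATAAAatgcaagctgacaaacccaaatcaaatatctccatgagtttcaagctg
SmD2: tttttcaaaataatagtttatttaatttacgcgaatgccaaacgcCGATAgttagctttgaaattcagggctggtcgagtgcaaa
SF2: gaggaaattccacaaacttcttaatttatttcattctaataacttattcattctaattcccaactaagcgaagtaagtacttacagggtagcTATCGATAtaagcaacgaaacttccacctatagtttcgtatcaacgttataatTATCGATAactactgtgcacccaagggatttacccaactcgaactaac
U2af50: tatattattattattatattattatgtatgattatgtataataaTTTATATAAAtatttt
Sf3b2: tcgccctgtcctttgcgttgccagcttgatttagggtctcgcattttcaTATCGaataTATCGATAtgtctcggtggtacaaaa
SmB: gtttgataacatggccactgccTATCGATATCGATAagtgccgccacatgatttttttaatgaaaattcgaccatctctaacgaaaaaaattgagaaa

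Promoter peaks were found at 33 of the 38 spliceosome genes, 86.8%, against 37.1% of all protein-coding genes. The members with a peak had a median signal of 224.7 and a range of 132.1 to 506.9, against a median of 253 and a highest value of 2038.1 over all 5179 genes with a promoter peak. Their median rank was 2650, against 2099 over those genes. Among them 11 of 33 had a peak among the 1389 strongest of the list, 33.3%, against 34.9% of all genes with a peak, and 1 of 33, Prp3 at rank 279, was among the strongest 10% of the list, 3.03% against 15.1%. Among the 2779 strongest peaks, 19 of 38 members had a peak, 50%, against 23.5% of all genes. By these counts and medians, a larger share of the spliceosome genes than of all genes had a peak, while their median signal was below that of all genes with one. No test was made of these shares, since the members were chosen with earlier results known.

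**Figure D1:**
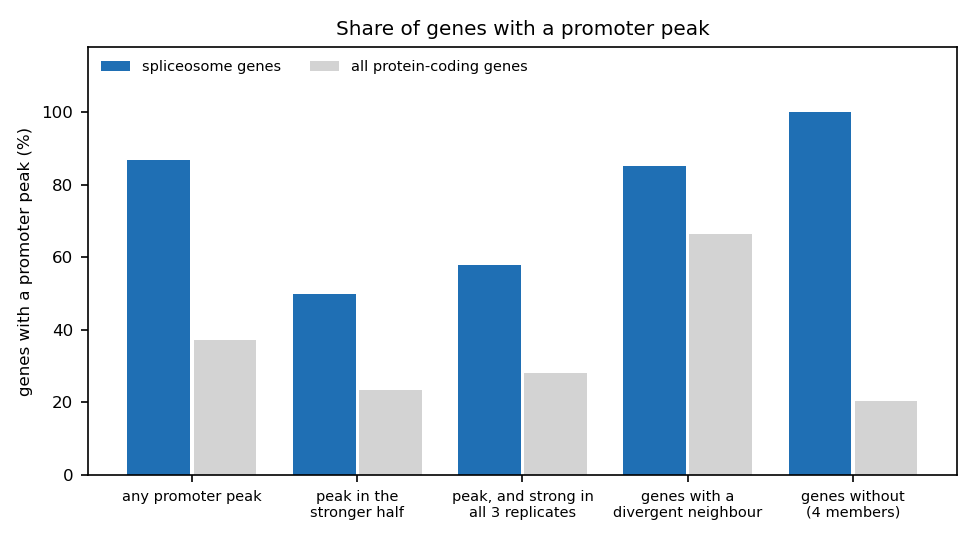
Share of genes with a promoter peak (bars, percent) among the 38 spliceosome genes (blue) and all 13968 protein-coding genes (grey), for 3 definitions of a peak and for genes with and without a divergent neighbour within 1000 bp. The blue bar is higher in each pair, and the last pair rests on 4 members.

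In each of the 3 replicate lists, too, a larger share of the members than of all genes had a strong region. Each list holds background regions as well as peaks, so only its 5558 strongest regions were counted. Replicate 1 had such a region at 31 members (37.7% of all genes), replicate 2 at 34 (36.4% of all genes) and replicate 3 at 27 (33.7% of all genes). Of the 33 members with a promoter peak, 22 were among the strongest regions of all 3 replicates. Another 10 were so in 2 replicates and 1 in 1 replicate. The 22 are 57.9% of the 38, against 28.2% of all genes, shares that also count genes without a peak. Among genes with a promoter peak, all 3 replicates had a strong region at 22 of 33 members. This held for 3944 of all 5179 genes with a peak, a larger share than among the members. Over all regions listed, the members' median ranks were 2654, 2658.5 and 2429 in the 3 lists (mean 2580.5 ± 131.2, SD, n = 3). These medians cover the 37, 38 and 34 members listed, in lists of unlike length. The SD is therefore not the replicate spread of a single quantity. The medians over all genes listed there were 3680, 3155.5 and 2832.5, so the members ranked higher than all listed genes here and lower than all genes with a peak in the thresholded list. The sets differ, since the replicate lists also hold background regions. Ranks below are positions in the stated list, where 1 is the highest signal, and lists differ in length (30000, 17251 and 14368 regions), so ranks describe each list and no change between them.

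**Figure D2:**
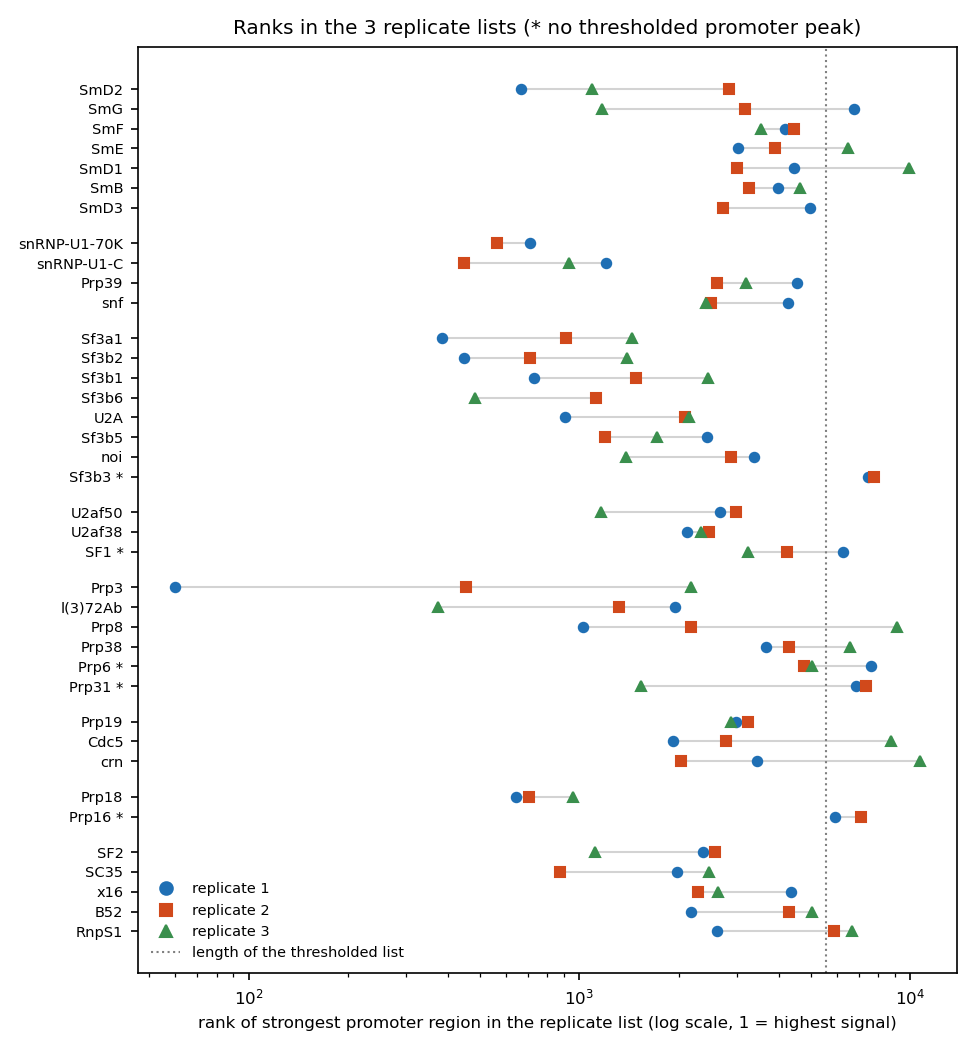
Rank (log axis) of the strongest region within 500 bp of a TSS in each replicate list, for each of the 38 members grouped by role. Symbols show replicates 1, 2 and 3, grey lines join the lowest and the highest rank, and the dotted line marks rank 5558. Prp3 spans ranks 60 to 2170, whereas the 7 U2 members with a peak lie between 385 and 3366.

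All 7 Sm core genes had a promoter peak, but 6 of them ranked below the 2779 strongest of the list. The Sm proteins form the ring that sits on the snRNAs. SmD2 stood apart with a signal of 322.2 and rank 1224, and it ranked 668, 2842 and 1090 in replicates 1, 2 and 3. The signals of SmG (183.2), SmF (179.4), SmE (167.1), SmD1 (160.5), SmB (153.4) and SmD3 (148.9) lay close together, at ranks 3706 to 4765. In the replicates, SmG ranked 6771, 3166 and 1174, and SmD1 ranked 4441, 2999 and 9937. SmE ranked 3022, 3915 and 6500, SmB 3987, 3253 and 4644 (signals 72.5, 77.3 and 35.0), and SmF 4169, 4441 and 3541. SmD3 ranked 4964 and 2715 in replicates 1 and 2 and had no region of replicate 3 within 500 bp, the nearest summit there being 3543 bp away. At SmB, SmD1 and SmG the summit lay upstream of the gene and closer to the start of the neighbouring gene, by distances given below.

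The U2 snRNP genes had peaks at 7 of 8, with a median signal of 313.8. All 7 were among the 2779 strongest peaks and 5 among the 1389 strongest. SF3a and SF3b are the parts of U2 that hold it at the branch point. Sf3a1, an SF3a subunit, had a signal of 405.7 at rank 596, and signals of 191.4, 138.7 and 71.7 in the replicates, at ranks 385, 911 and 1445. Sf3b2 had 379.7 at rank 754, and ranked 447, 708 and 1392. Sf3b1, the large subunit that clamps the branch helix, had 342.9 at rank 1049, and ranked 729, 1486 and 2451. All 3 were among the 5558 strongest regions of every replicate. Sf3b6, whose human counterpart touches the branch-point adenosine, had 313.8, and it ranked 1126 and 482 in replicates 2 and 3. In replicate 1 the nearest summit to its TSS was 549 bp away, just outside the window, with rank 2601. U2A, the partner of snf in U2, had 311.6 and ranked 903, 2092 and 2141. Sf3b5 had 297.1 and ranked 2424, 1191 and 1721. The lowest was noi, which encodes the fly SF3a3 subunit, with 224.7 and ranks of 3366, 2879 and 1381. Of the 7 Sm core genes, 6 had a signal below that of noi.

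The U2 group ranked above the Sm core group by median in each replicate list. Median ranks of the listed U2 genes in replicates 1, 2 and 3 were 903, 1338.5 and 1445, against 4169, 3166 and 4092.5 for the Sm core genes. The groups overlapped in every list, since SmD2 ranked above some U2 genes in each, and Sf3b3 ranked 7443 and 7768 in replicates 1 and 2. Sf3b3, another SF3b subunit, had no thresholded promoter peak. With 7 and 8 genes chosen with earlier results known, the difference between the groups was not tested.

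**Figure D3:**
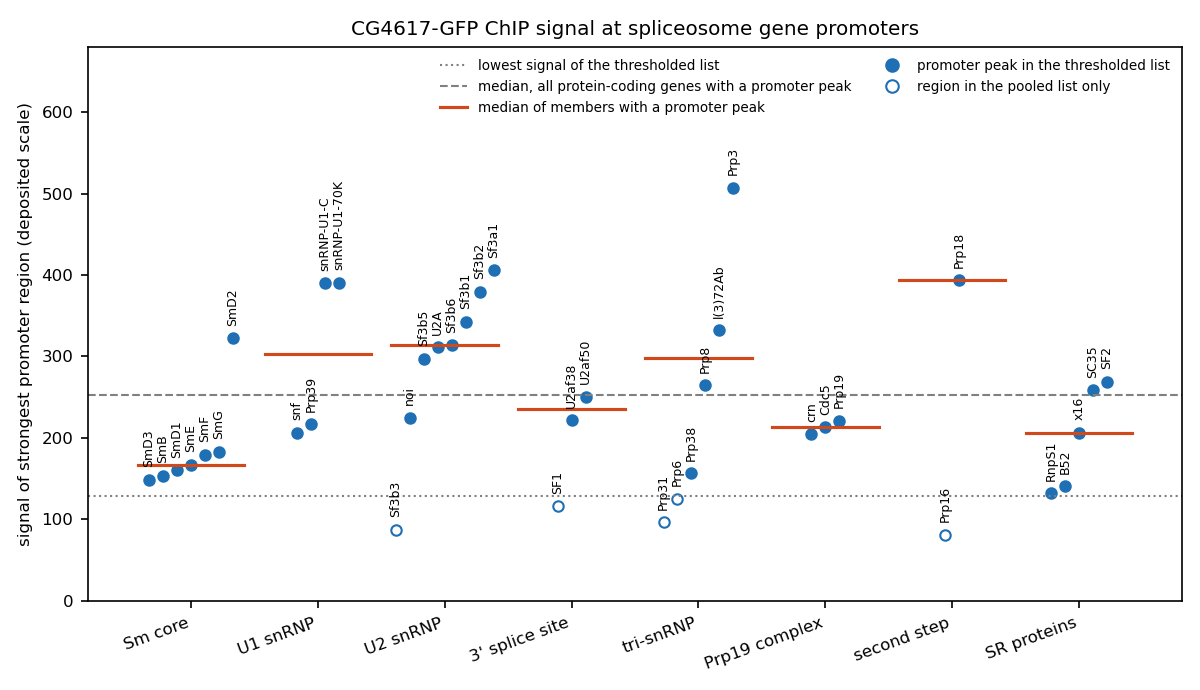
Signal of the strongest region within 500 bp of a TSS (deposited scale) for each member by role. Filled points are promoter peaks of the thresholded list, open points are regions of the pooled list only, orange lines are medians of members with a peak, and the grey lines mark the lowest thresholded signal (128.8) and the median of all genes with a promoter peak (253). The U2 points other than Sf3b3 lie between 224.7 and 405.7, and 6 of 7 Sm core points lie below 224.7.

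All 4 genes of U1 proteins had a peak, in a strong and a weak pair. The gene for the 70K protein, which binds U1 RNA, had a signal of 390.3 at rank 687. snRNP-U1-C, which steadies pairing at the 5' splice site, had 390 at rank 688 and ranked 1201, 449 and 928. The region at snRNP-U1-70K ranked 707 and 563 in replicates 1 and 2 but was missing from replicate 3, whose nearest summit was 3422 bp away. snf, which encodes the protein that serves in both U1 and U2 in flies, had 206.5 and ranked 4275, 2497 and 2407. Prp39, named after a yeast U1 component, had 216.9 and ranked 4554, 2602 and 3197.

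Among the proteins that bind the end of the intron, U2af50 and U2af38, the large and small subunits of the U2 auxiliary factor, had peaks and SF1, the branch-point binding protein, did not. U2af50 had a signal of 250.4 and ranked 2654, 2979 and 1159. It is the member with the most annotated starts, 4. U2af38 had 221.4 and ranked 2120, 2459 and 2328, and a second summit within 500 bp of its start had 152.9. Both subunits were among the 5558 strongest regions of every replicate.

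The tri-snRNP genes had peaks at 4 of 6 and ranged from the strongest peak of all members to 2 genes without one. Prp3, a U4/U6 protein, had a signal of 506.9 at rank 279, in a peak on 3L from 19910175 to 19910409 with its summit 10 bp from the start. Its signal was 283.6, 171.3 and 58.4 in replicates 1, 2 and 3, at ranks 60, 453 and 2170, all among the 5558 strongest regions of their lists. l(3)72Ab, the Brr2 helicase that unwinds U4 from U6, had 332.5 and ranked 1941, 1315 and 375, and had a second summit with 162. Prp8, the U5 protein at the centre of the spliceosome, had 264.9 and ranked 1026, 2181 and 9123. Prp38, needed for activation in yeast, had 156.9 and ranked 3675, 4312 and 6587. The low ranks of Prp8 and Prp38 in replicate 3 lay outside its 5558 strongest regions.

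All 3 genes of the Prp19 complex had a peak, with signals from 204.2 to 221.1. Prp19, a ubiquitin ligase, had 221.1 and ranked 2980, 3225 and 2881. Cdc5 had 213.1 and ranked 1918, 2775 and 8751, and crn (crooked neck) had 204.2 and ranked 3442, 2027 and 10687. Neither was among the 5558 strongest regions of replicate 3. Of the genes named for the second catalytic step, known from yeast, Prp18 had a strong peak and Prp16, a helicase, had none. Prp18 had 393.4 at rank 666 and ranked 645, 705 and 958 in the replicates, with its summit 241 bp from its own start and 9 bp from that of CG6013.

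The 5 SR protein genes all had a peak, none of them among the 1389 strongest. SF2, the fly SRSF1, had a signal of 268.8 and ranked 2371, 2566 and 1117. SC35, the fly SRSF2, had 258.6 and ranked 1967, 872 and 2465. x16 had 206.5 and ranked 4359, 2287 and 2627. B52, an SR protein found at active loci of fly chromosomes, had 140.4 and ranked 2176, 4309 and 5044. RnpS1, an SR-related protein that joins the exon junction complex, had the weakest member peak, 132.1 at rank 5411, with its summit 492 bp from the TSS, just inside the window. It ranked 2600, 5903 and 6655. In the stricter window of 250 bp RnpS1 had no peak, and nor did SmB, SmD1 and SmG. The nearest divergent genes of x16 and B52, Hrb27C and Hrb87F at 494 and 780 bp, encode other RNA-binding proteins of the hnRNP class.

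The 5 members without a promoter peak were Sf3b3, SF1, Prp6, Prp31 and Prp16. Each had a region within 500 bp in the pooled list, with signals from 81.1 to 125.1, all below the lowest thresholded signal of 128.8. The pooled list of 20051 regions also holds background, so such a region need not be binding. The share of all genes with a pooled region was not counted. In the replicate lists, 44.6% to 59.2% of all genes had a region of any rank. Prp6, a U5 protein that bridges the tri-snRNP, was nearest to the threshold, with 125.1 at pooled rank 5746, against rank 5558 for the last thresholded peak and 5411 for RnpS1. Its replicate ranks were 7596, 4781 and 5039. A thresholded summit of signal 150 lay 554 bp from its TSS, and one of 134.6 lay 719 bp from that of Sf3b3, so both had a peak within 1000 bp. SF1 had 116.2 in the pooled list and ranked 6260, 4256 and 3229 in the replicates. Prp31, a U4/U6 protein, had 96.4 and ranked 6835, 7375 and 1532, so replicate 3 alone had it among its 5558 strongest regions. Prp16 had 81.1 and ranked 5914 and 7087 in replicates 1 and 2, with no region within 500 bp in replicate 3, and its nearest thresholded summit was 5783 bp from its starts. That gene held 1 thresholded peak outside the promoter window, and no other member did.

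Most of the spliceosome genes share their start region with a neighbour. Of the 38, 34 had a protein-coding TSS on the other strand upstream within 1000 bp, 89.5%, against 36.2% of all genes, with gaps from 42 to 958 bp and a median of 302.5 bp. Of these 34 members 29 had a peak, 85.3%, against 66.4% of all genes with such a neighbour. The other 4, SmF, snRNP-U1-70K, U2A and crn, had no such neighbour and all had a peak, against 20.5% of all genes without one. If genes of the 2 kinds were bound at these rates, the mix among the members would give 61.5%, a value added after the data were seen, which lies between the 37.1% of all genes and the 86.8% of the members. A single peak is counted for both genes of a pair, and the part this plays in the members' share was not tested. No 2 members had the same strongest peak.

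At 23 of the 33 members with a peak the summit also lay within 500 bp of the start of another protein-coding gene, 69.7%, against 55.5% of all genes with a peak. The gene next door was on the other strand in 23 of 24 pairs, the exception being Kcmf1 beside Sf3b5. The summit was closer to the member's own start in 16 and closer to the neighbour's in 7 of these 23 genes, 30.4%, against 47.7% of all genes with a shared summit. At Prp3 the summit lay 10 bp from its start and 75 bp from that of Mi-2, a chromatin remodeller. At Sf3b1 it lay 19 bp from its start and 238 bp from that of Nle, and at snf 19 bp against 240 bp for Cdk7, a kinase of transcription and the cell cycle. At noi the distances were 33 bp and 271 bp for Vha26, a proton pump subunit, and at SC35 21 bp and 192 bp for eRF3, a translation release factor. In these pairs the summit was nearer to the splicing gene.

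The 7 summits closer to the neighbour were at SmB, SmD1, SmG, U2af50, Cdc5, Prp18 and RnpS1. At SmB the summit lay 262 bp from its own start and 2 bp from that of KdelR, which encodes the receptor that returns proteins to the endoplasmic reticulum. At SmD1 it lay 278 bp from its start and 56 bp from that of Ptp69D, a receptor tyrosine phosphatase, and at SmG 400 bp against 149 bp for mthl1. RnpS1 had 492 bp against 204 bp for mura, U2af50 144 bp against 40 bp for PIG-Q, and Cdc5 72 bp against 17 bp for CG1233. Of the 6 Sm core genes with a shared summit, 3 are in this set. Signals in the set of 7 were 393.4 at Prp18, 250.4 at U2af50, 213.1 at Cdc5 and 183.2 at SmG. They were 160.5 at SmD1, 153.4 at SmB and 132.1 at RnpS1. The other Sm core genes with a shared summit, SmD2, SmE and SmD3, had 322.2, 167.1 and 148.9. SmF (179.4) had no protein-coding neighbour at its summit, so it could not be in the set. Whether signal goes with this position was not tested. No list tells which gene of a pair the protein acts on.

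**Figure D4:**
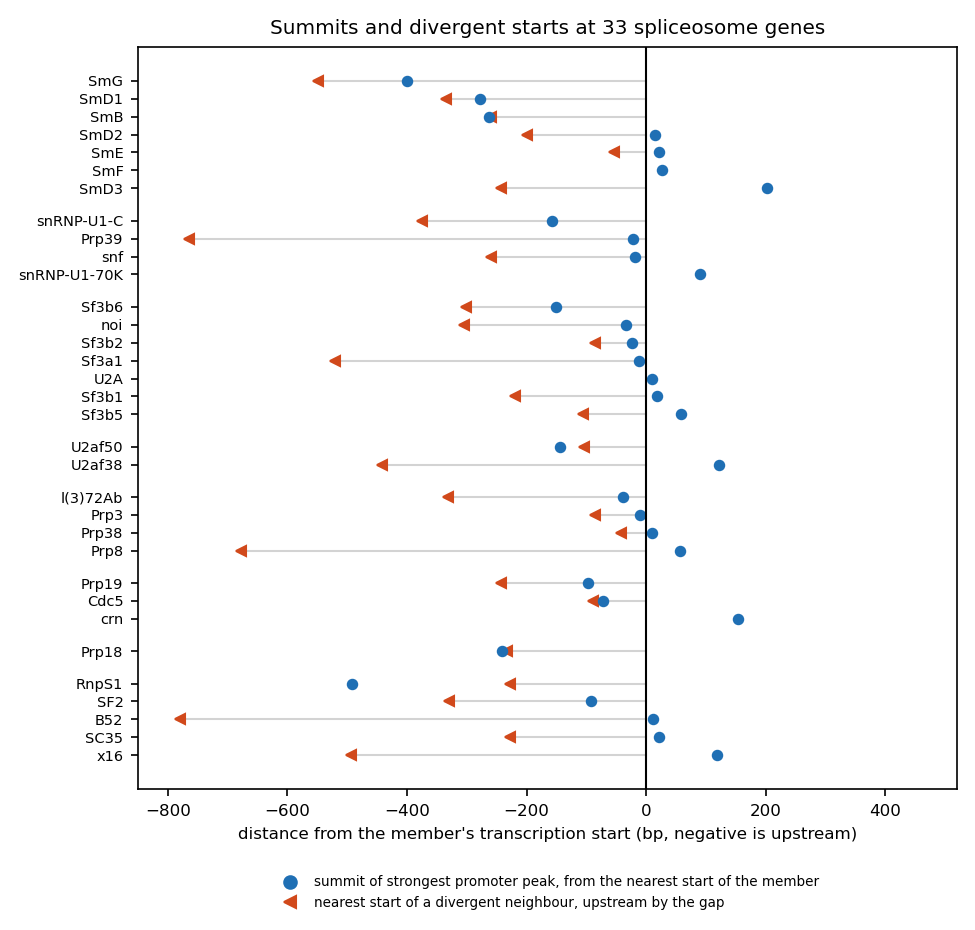
Position of the strongest summit (blue points) at each of the 33 members with a peak, in bp from its nearest TSS along the direction of transcription, and of the nearest divergent start upstream (orange arrowheads) where there is one within 1000 bp. Most blue points lie near 0, at a median distance of 58 bp, and those of SmB, Prp18 and Cdc5 lie beside the arrowhead.

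The median distance from summit to the member's nearest TSS was 58 bp, against 91 bp over all genes with a promoter peak, and 21 of 33 summits lay within 100 bp, 63.6% against 53.5%. Summits lay upstream of the TSS in 18 members, 54.5% against 59.5% of all genes with a peak. In the annotation of the member gene itself, 17 summits fell outside the gene, 13 in its 5' UTR and 3 in its coding sequence (SmD3, Prp39 and crn). This split was not counted over all genes with a peak, so it is not shown to be particular to the members. Among the members, 12 peaks were narrower than the usual 440 bp, 36.4% against 31.7% of the peaks of all such genes, down to 119 bp at Sf3a1, and none of these had a signal under 213.1. Signal by width was not counted over all genes with a peak, so this link is not shown to be particular to the members. Of the 38 members, 31 have a single annotated start and 7 have several, against several at 3699 of the 13968 protein-coding genes. At 5 members (SmD2, Sf3b6, U2af38, l(3)72Ab and SF2), 13.2%, 2 summits lay within 500 bp of a start. Over all protein-coding genes, 8.15% had 2 or more. Both shares also count genes without a peak. Among genes with a peak, 5 of 33 members and 1139 of all 5179 genes had 2 or more, a smaller share of the members.

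The DRE and Motif 1 were each found at some of the member summits. Within 100 bp of the summit, the DRE was found at 7 of 33 members, 21.2%, against 10.1% of the 3726 peaks that are the strongest of a gene, at SmB, SmD1, snf, Prp39, U2A, Sf3b2 and SF2. Motif 1 was also found at 7, 21.2% against 9.12%, at SmF, SmG, snRNP-U1-70K, Sf3b1, Prp3, Cdc5 and Prp18. No member had both, but with 7 members each this says little, and the share of all peaks with both was not counted. In the sequences above, SF2 holds the DRE in separate places and SmB holds overlapping copies, while Prp3 holds Motif 1 beside GAGAG and CGATA. Both elements occur at strong and at weak peaks, since Sf3b2 (379.7) and SmB (153.4) share the DRE, and Prp3 (506.9) and SmG (183.2) share Motif 1. The E-box was found at 5 members, 15.2% against 15.9%, GAGAG at 3, 9.09% against 18.1%, the TATA box at 9, 27.3% against 24.0%, and CGATA, which every DRE contains, at 17, 51.5% against 43.0%.

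In the window from 250 bp upstream to 50 bp downstream of the most upstream TSS, the DRE was found at 13 of 38 members, 34.2%, against 9.36% of all protein-coding promoters and 18.5% of those of genes with a peak. Motif 1 was found at 9, 23.7% against 6.04% and 13.9%, and the E-box at 8, 21.1% against 17.7% and 22.9%. GAGAG was found at 4, 10.5% against 29.8% and 22.6%, and the TATA box at 23, 60.5% against 45.9% and 46.3%. CGATA was found at 27, 71.1% against 47.4% and 61.6%. Of the members without a peak, Sf3b3 and Prp6 hold the DRE in this window. Such matches describe the sequence and do not show that a factor binds there, and these shares were not tested.

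Other genes related to splicing, among them snRNP assembly factors and splicing regulators, had promoter peaks at rates near that of the 38. In 5 further lists, chosen with earlier results known, 55 of 67 genes had one, 82.1%, against 37.1% of all protein-coding genes, with a median signal of 260.7. The other spliceosome proteins had 21 of 26. They were led by Phf5a, a small SF3b subunit, with 578.4 at rank 180, Slu7, a second-step factor, with 560.6, and fand, the fly Syf1, with 417. Phf5a and Slu7 were thus above every one of the 38. Of the remaining U2 subunits in that list, Sf3a2 had 333.1 and Spx, the fly SF3b4, had no promoter peak.

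The LSm proteins, relatives of the Sm proteins, had 5 of 6 with signals from 164.1 to 220.9, led by LSm7 (220.9), LSm-4 (194.6) and Lsm10 (184.3), with no peak at Lsm11, a protein of the U7 particle of histone messenger RNA processing. Their median of 184.3 lay near the Sm core median of 167.1 and under the 313.8 of the U2 genes. The exon junction complex had 4 of 4, led by mago (435.3), tsu (267) and btz (239.8). Genes of the SMN complex and other steps of snRNP assembly had 8 of 10, led by icln (396.1), csul, a methyltransferase of Sm proteins (333.9), and Gem2 (278.9), without Gem3 and vls. SR kinases and other splicing regulators had 17 of 21, led by elav, a neuronal RNA-binding protein (477.4), Caper (426.9) and Srrm1 (412.1).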

How the data were processed

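ChIP-seq regions from 3 replicates of 1 group were used as deposited, in the build dm6. Per the sample listing text, each replicate list holds peaks and background regions called from 1 library and 1 control alignment, the pooled list comes from all 3 libraries, and the thresholded list was derived from these by the irreproducible discovery rate procedure. No source used here names the aligner, the caller or the threshold. The signal per region is the authors' deposited value on an unstated scale, used for order and medians within a list. Depth is unknown.

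Each gene took its strongest region with a summit within 500 bp of any TSS (Ensembl release 115, 13968 protein-coding genes). Region positions are counted from 1. Sequences came from the RefSeq copy of Release 6. The code of the assignment was checked on simulated summits, which does not show which gene a peak belongs to. No statistical test was run, because there is 1 group: shares are set beside those of all protein-coding genes. Of the further splicing names, 6 were dropped, as duplicates or because the annotation gives no role. Every member is named, as are up to 3 leading genes of each other list. Members, role groups, lists and elements were chosen with earlier results of these data known. Python 3.11.15, pandas 2.3.3 and NumPy 2.4.6 were used. The dm3 lists were not used.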

Additional observations from a re-analysis of the deposited data

How the results depend on the processing

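The 33 members with a peak became 29 within 250 bp, 35 within 1000 bp, 33 with 1 TSS per gene and 26 where the region itself had to overlap a TSS. Among the 2779 strongest peaks 19 members had a peak, and 20 did (52.6%) where the summit had to lie inside a strong region of all 3 replicates. Required in only 2 replicates, that support left 21 members without replicate 1, 21 without replicate 2 and 31 without replicate 3, so most of the loss came with replicate 3, at SmD1, SmD3, SmE, Prp8 and B52 among others. The share of all genes was 32.9% within 250 bp, 40.3% within 1000 bp, 29.1% by overlap, 23.5% among the strongest 2779, 26.5% with all 3 replicates and 28.2% to 32.1% with 2. It stayed under the members' share in each of these settings. The median member rank was 2429 in replicate 3 against 2650 in the thresholded list. A divergent neighbour was found at 26 members within 500 bp, 68.4% against 27.3% of all genes. Within 2000 bp it was found at 35, 92.1% against 44.4%. Of the alternatives for the main member counts, shares of all genes, divergent neighbours and median rank, 13 moved and 10 did not. Counts and group medians were called moved beyond a ratio of 1.5. Shares of all genes and median ranks were called moved at the SD over the 3 replicate lists or more. For median ranks that SD is not the replicate spread of a single quantity, as stated above, so the label is a convention. Of 34 further alternatives, mostly for group medians, mean ranks and element counts, 29 moved little and 5 by more. Among these 5, 4 were for elements (E-box, GAGAG and the TATA box). The other 1 was the mix of start regions, which was added after seeing the data. No paired analysis was possible because there is only 1 group.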

Other observations

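Of 32 annotated small nuclear RNA genes, which include 7SK and U7 genes that lie outside the spliceosome, 2 had a thresholded summit within 500 bp of their start, both of them among the 3 U6 genes. None of the 5 U1, 6 U2, 3 U4 and 7 U5 genes had one, nor did the single genes of the minor spliceosome RNAs U11, U12, U4atac and U6atac. Several of these genes are near-identical copies, and no source used here says how multiply mapping reads were handled, so an empty count does not show a lack of binding. Of all protein-coding genes, 37.1% had a thresholded summit within 500 bp of a start. The share over other non-coding genes was not counted, nor whether the 2 U6 genes have the same summit.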
